A study of Homo sapiens with 6 samples.

Results

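The respiratory chain of the mitochondrial inner membrane was followed through 88 genes, 75 in the nucleus and 13 on the mitochondrial DNA, out of 64299 rows in a gene count table. The members were the rows whose identifiers map to the standard symbols of structural subunits of complexes I to V: 44 of complex I (37 nuclear, 7 mitochondrial), 4 of complex II, 9 of complex III (8 nuclear, 1 mitochondrial), 14 of complex IV (11 nuclear, 3 mitochondrial) and 17 of complex V (15 nuclear, 2 mitochondrial). The choice went by symbol and not by measured value, but it was made with earlier results of these data known. NDUFA4 was placed in complex IV, where its protein is now known to sit. RNA was sequenced from HEK293T, a transformed human embryonic kidney cell line (the series text calls it HEK293), in 3 libraries of cells given the ERbeta plasmid and 3 of cells given an empty vector, EV_Ctrl. Both groups received plasmid DNA with the same transfection reagent, so an untransfected state was not part of the comparison. The labels do not define ERbeta; it is read here, from what is known of the study, as a designed protein of β-sheets sent to the endoplasmic reticulum and not as an estrogen receptor. Its RNA was not analysed here, and the estrogen receptor gene ESR2 had 7, 2 and 2 reads in ERbeta 1 to 3, against 3, 7 and 5 in EV_Ctrl 1 to 3, and ESR1 had 6, 7 and 9 reads in ERbeta, against 2, 4 and 1 in EV_Ctrl.

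Complexes I and II pass electrons from NADH and succinate to ubiquinone, complex III passes them to cytochrome c, complex IV hands them to oxygen, and complex V, the ATP synthase, uses the resulting proton gradient to make ATP. All but complex II combine subunits made in the cytosol with subunits made inside the mitochondrion. The mitochondrial mRNAs come from long transcripts of both strands of the circular genome that are cut into single messages, while nuclear subunit genes are known to share regulators such as NRF1 and GABP.

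The libraries held 13149304 to 16531368 counts for ERbeta and 6833442 to 27101644 counts for EV_Ctrl. All 6 libraries expressed the 6 HEK293 markers (KRT8, KRT18, VIM, NEFL, NEFM and PAX2). KRT8 was at 452 to 465 CPM (counts per 1e+06 counts) in ERbeta and 407 to 456 CPM in EV_Ctrl. PAX2 was lowest, at 3.84 to 7.77 CPM in ERbeta and 6.96 to 11.4 CPM in EV_Ctrl. Of 8 markers of other cell types, COL1A1 alone passed the filter on low counts. COL1A1 had 22.1, 19.5 and 13.5 CPM in ERbeta and 26.7, 19.2 and 30.9 CPM in EV_Ctrl, above PAX2 in all 6 libraries. PTPRC, CD3E, HBB, KRT5, MYH7, CDH5 and ALB were at or near 0. The 13 mitochondrial mRNAs took 1.96% to 3.35% of the counts in ERbeta and 2.74% to 3.32% in EV_Ctrl. Libraries did not stand apart by group alone. EV_Ctrl 2 differed from the other controls in the slope of level on GC content: relative to the average of the libraries, the log2 CPM of genes at 35% GC minus that of genes at 60% GC was 0.27, 0.16 and 0.78 in ERbeta 1 to 3 and -0.75, 0.18 and -0.64 in EV_Ctrl 1 to 3. Levels below are CPM after TMM normalisation, and levels compared between genes are divided by the length of the coding sequence.

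In 2 places on the mitochondrial DNA a pair of members shares more than 1 base, so that reads there lie in both genes. They are shown because counts of these genes cannot be fully separated. The shared bases, 46 between MT-ATP8 and MT-ATP6 and 7 between MT-ND4L and MT-ND4, are in capitals, starting at the second gene's start codon; coordinates are GRCh38, plus strand, and the bases are those of the GENCODE 29 transcripts.
MT-ATP8 and MT-ATP6, chrM:8513-8586: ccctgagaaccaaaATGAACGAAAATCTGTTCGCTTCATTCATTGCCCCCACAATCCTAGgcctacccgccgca
MT-ND4L and MT-ND4, chrM:10746-10780: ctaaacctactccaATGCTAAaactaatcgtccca
Each of these pairs is known to lie on one bicistronic mRNA, and MT-ATP6 also shares 1 base with MT-CO3.

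Respiratory chain genes were not called different between ERbeta and EV_Ctrl cells. By edgeR's quasi-likelihood test, Benjamini-Hochberg adjusted, 0 of the 88 members passed an adjusted p of 0.05, the smallest being 0.397, and 0 of all 16243 tested genes passed (0%; smallest adjusted p 0.13). All 88 members passed the filter on low counts. At an unadjusted p under 0.05, 2 members were higher in ERbeta (NDUFA5 and SDHD, 2.27%) and 0 lower, where 9.54% of all tested genes were higher and 2.89% lower. The 3 ERbeta libraries lay wholly above the 3 EV_Ctrl libraries for 2 members, again NDUFA5 and SDHD, and wholly below for 2, NDUFA13 and SDHA; among all tested genes these shares were 10.2% and 8.49%. DESeq2 called 0 members and 0.437% of all tested genes. In bulk RNA, fewer cells with a message and less of it per cell cannot be told apart. With 0 calls, the values below describe levels and their spread, and no difference among them passed the test.

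Of the 75 nuclear members 45 had a positive and 30 a negative log2 fold change of ERbeta over EV_Ctrl, with a median of 0.02 and a range of -0.17 to 1.00. All tested genes had a median of -0.01. A log2 fold change within 0.25 of 0, a window chosen after the values were seen, was found for 68 of 75 nuclear members. The share of all tested genes was 62.4%, but these include many weakly expressed genes, and no share was computed at a matched level. The 13 mitochondrial mRNAs had a median of -0.12 and a range of -0.48 to 0.17, with 3 positive and 10 negative. The sign of the mitochondrial median rested on a single library, since without ERbeta 3 it was 0.06.

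**Figure D1:**
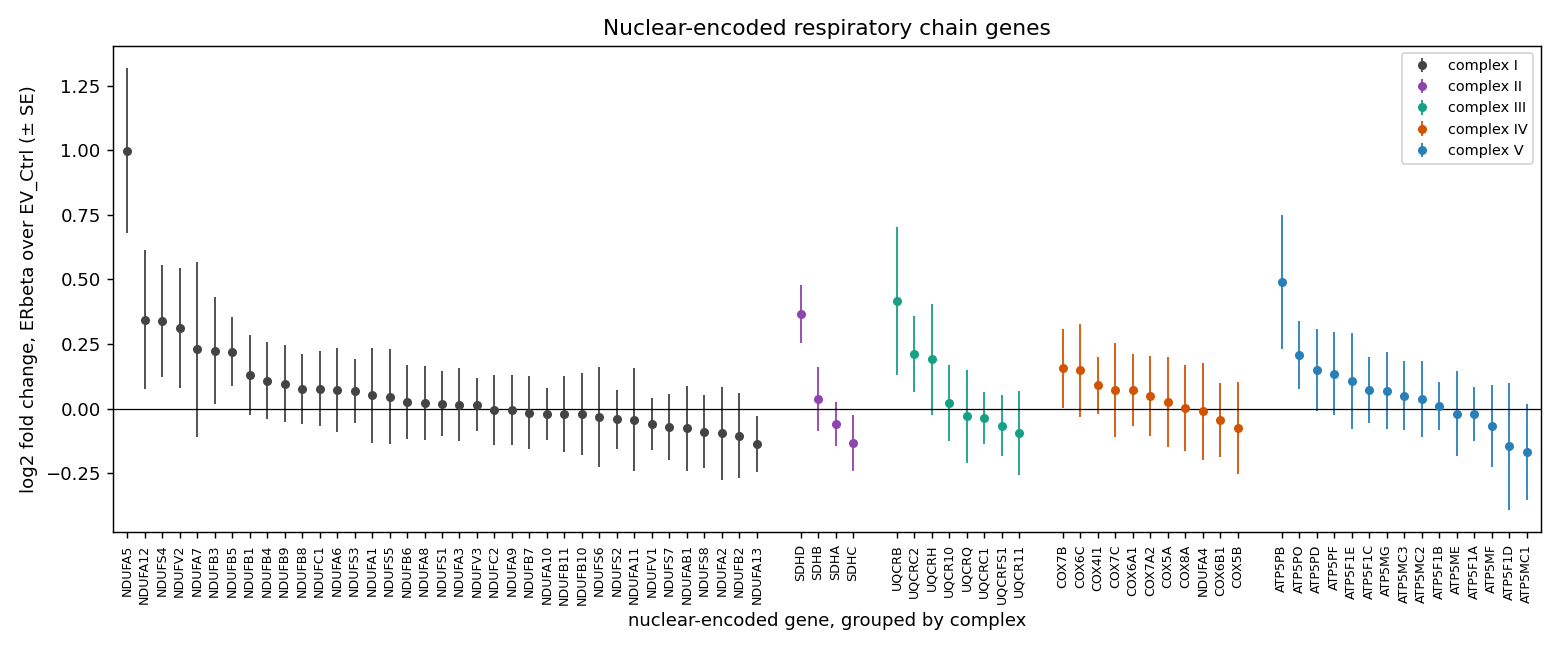
Log2 fold change of ERbeta over EV_Ctrl with its standard error (edgeR, 3 libraries per group) for the 75 nuclear-encoded members, grouped by complex and sorted within it. NDUFA5 at 1.00 is the highest, and 68 of 75 genes lie within 0.25 of 0.

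Complex I, the NADH dehydrogenase, had 21 of 37 nuclear members with a positive and 16 with a negative log2 fold change, with a median of 0.02. NDUFA5, an accessory subunit (ENSG00000128609.12; chromosome 7, 123536997 to 123558255, minus strand, GENCODE 29 on GRCh38), had 67.3, 71.3 and 83.8 CPM in ERbeta 1 to 3, against 25.6, 58.6 and 25.7 CPM in EV_Ctrl 1 to 3. The groups did not overlap, and EV_Ctrl 2 lay nearer to the ERbeta libraries than to the other controls. Its log2 fold change was 1.00 ± 0.32 (SE; edgeR adjusted p 0.397). NDUFA5 had the lowest GC content of the members, 35.04%, and with a correction for GC content its log2 fold change was 0.43. The GC slope differed between the groups, with a mean of 0.40 in ERbeta and -0.40 in EV_Ctrl. This correction may thus also remove a real difference between groups, which cannot be told apart from a technical one. NDUFS4, an accessory subunit next to the NADH-oxidising arm, had 49.9, 60.6 and 58.1 CPM in ERbeta and 40.5, 59.3 and 32.8 CPM in EV_Ctrl, and the groups overlapped through EV_Ctrl 2. NDUFB5, an accessory subunit of the membrane arm, had 42.0, 48.1 and 52.9 CPM in ERbeta and 40.7, 44.9 and 36.9 CPM in EV_Ctrl. NDUFA1, the nuclear complex I member with the highest level per coding length, averaged 512 CPM per kb in ERbeta and 494 CPM per kb in EV_Ctrl, a log2 fold change of 0.05 ± 0.18. NDUFA13, named after its values were seen, had 19.3, 21.5 and 19.9 CPM in ERbeta, below the 22.4, 22.4 and 21.9 CPM of EV_Ctrl by a log2 fold change of -0.14 ± 0.11.

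Complex II, succinate dehydrogenase, is the complex with no mitochondrially encoded subunit, and of its 4 genes SDHD and SDHB had positive and SDHC and SDHA negative log2 fold changes. SDHD, a membrane anchor subunit (ENSG00000204370.6; chromosome 11, 112086773 to 112120013, plus strand), had 60.6, 59.5 and 64.9 CPM in ERbeta and 47.9, 52.1 and 43.5 CPM in EV_Ctrl. All 3 ERbeta libraries lay above all 3 controls, with a log2 fold change of 0.37 ± 0.11 (edgeR adjusted p 0.397) that was 0.08 with the GC correction. SDHA, the flavoprotein that oxidises succinate, had 192, 199 and 197 CPM in ERbeta and 204, 203 and 207 CPM in EV_Ctrl. These groups did not overlap either, by a log2 fold change of -0.06 ± 0.08 that is smaller in size than its standard error. SDHB, the iron-sulfur subunit, averaged 114 ± 5.10 CPM in ERbeta and 111 ± 14.8 CPM in EV_Ctrl (n = 3 each, SD). SDHC, the other membrane anchor, averaged 119 ± 11.8 CPM in ERbeta and 130 ± 5.27 CPM in EV_Ctrl, with overlapping groups.

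The 250 bases upstream of SDHD and of ATP5PB are shown because they are the members with the smallest p-values that have a window near their annotated start; NDUFA5 is left out because its RefSeq start lies 43396 bases from that of GENCODE. Sequences are from RefSeq on GRCh38.p14, both on the plus strand. Capitals mark, in order, the NRF1 core word GCATGCG, which overlaps its own reverse complement here, and the reverse complement of the ETS word CCGGAAG that GABP recognises; the 250 bases of ATP5PB held none of the words searched.
SDHD, chr11:112086623-112086872: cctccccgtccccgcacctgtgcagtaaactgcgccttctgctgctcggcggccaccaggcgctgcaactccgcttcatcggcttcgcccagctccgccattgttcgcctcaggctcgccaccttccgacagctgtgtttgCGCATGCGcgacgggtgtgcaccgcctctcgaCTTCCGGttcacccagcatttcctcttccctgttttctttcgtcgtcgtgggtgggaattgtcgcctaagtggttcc
ATP5PB, chr1:111449214-111449463: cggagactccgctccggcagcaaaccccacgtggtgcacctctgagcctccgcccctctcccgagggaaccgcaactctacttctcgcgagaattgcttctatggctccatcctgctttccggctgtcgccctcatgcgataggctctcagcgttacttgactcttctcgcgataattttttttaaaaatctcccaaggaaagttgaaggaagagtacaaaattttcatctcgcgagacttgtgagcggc
Words were searched on both strands in windows of 250 bases before to 50 after each RefSeq start, available for 62 nuclear members (8 of them over 1000 bases from the GENCODE start) and 27305 genes in all. The NRF1 word was in 13 member windows (21.0%, against 4.13% of all windows), the ETS word in 19 (30.6%, against 10.7%) and the YY1 core word AAGATGG in 16 (25.8%, against 6.06%), one of them that of ATP5PB, past its start. The ETS and YY1 words shared bases in 0 member windows. The words were chosen with the members known. All windows include those of genes that did not pass the filter on low counts, while all members passed it. No share was computed over expressed genes only. A match is a run of letters and not a measured binding site.

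Complex III, the cytochrome bc1 complex, had 4 of 8 nuclear members positive and 4 negative, with a median of -0.00. UQCRB, a small subunit near the quinone site, had 110, 131 and 125 CPM in ERbeta and 77.0, 138 and 58.4 CPM in EV_Ctrl. EV_Ctrl 2 was the highest of all 6 libraries and EV_Ctrl 3 the lowest. The log2 fold change of 0.42 ± 0.29 was 0.00 with the GC correction. UQCRC2, a core subunit, had 194, 209 and 235 CPM in ERbeta and 177, 219 and 154 CPM in EV_Ctrl. UQCRH, the hinge subunit that assists cytochrome c docking, was at 690 CPM per kb in ERbeta and 604 CPM per kb in EV_Ctrl, with a log2 fold change of 0.19 ± 0.22. It had the highest nuclear level per coding length of this complex in ERbeta, while in EV_Ctrl UQCRQ, a small accessory subunit, was higher, at 604 CPM per kb in ERbeta and 617 CPM per kb in EV_Ctrl.

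Complex IV, cytochrome c oxidase, had the narrowest nuclear range: all 11 members lay between -0.08 and 0.16, with 8 positive. COX7B had 144, 164 and 142 CPM in ERbeta and 131, 163 and 110 CPM in EV_Ctrl, and COX6C averaged 101 ± 11.3 CPM in ERbeta and 91.2 ± 20.3 CPM in EV_Ctrl. COX4I1, a regulatory subunit that contacts the catalytic core, averaged 296 ± 20.8 CPM in ERbeta and 278 ± 27.6 CPM in EV_Ctrl. COX6B1, which faces cytochrome c, had the highest level per coding length of all nuclear members, 1262 CPM per kb in ERbeta and 1300 CPM per kb in EV_Ctrl, a log2 fold change of -0.04 ± 0.14. In all 4 genes the groups overlapped.

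Complex V had 10 of 15 nuclear members positive and a median of 0.05. ATP5PB, the b subunit of the peripheral stalk, had 198, 221 and 210 CPM in ERbeta and 133, 216 and 97.8 CPM in EV_Ctrl. EV_Ctrl 2 lay within the ERbeta range while the other controls lay below it, and the log2 fold change of 0.49 ± 0.26 (edgeR adjusted p 0.44) was 0.36 with the GC correction. ATP5PO and ATP5PD, also of the stalk, had log2 fold changes of 0.21 ± 0.13 and 0.15 ± 0.16, and ATP5F1E, the epsilon subunit of the rotor, 0.11 ± 0.19.

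Subunit c, which forms the rotor ring, is made as the same mature protein from 3 genes. ATP5MC1 made up 14.3% ± 1.04 of their summed CPM in ERbeta and 16.3% ± 1.10 in EV_Ctrl (n = 3 each, SD), ATP5MC2 36.4% ± 1.23 in ERbeta and 35.8% ± 0.29 in EV_Ctrl, and ATP5MC3 49.3% ± 1.57 in ERbeta and 47.9% ± 0.92 in EV_Ctrl. Their order was the same in all 6 libraries. ATP5MC1 had 66.5, 89.0 and 62.2 CPM in ERbeta and 86.6, 93.0 and 65.1 CPM in EV_Ctrl, the lowest nuclear log2 fold change at -0.17 ± 0.18. ATP5MC2 averaged 184 ± 26.8 CPM in ERbeta and 179 ± 24.2 CPM in EV_Ctrl, and ATP5MC3 248 ± 24.5 CPM in ERbeta and 240 ± 33.6 CPM in EV_Ctrl. Groups overlapped for all 3.

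The mitochondrial mRNAs were far more abundant. Per kb of coding sequence, the median was 1588 CPM in ERbeta and 1496 CPM in EV_Ctrl for the 13 mitochondrial genes, and for the 75 nuclear genes it was 197 CPM in ERbeta and 193 CPM in EV_Ctrl. Reads in untranslated regions still count, which overstates nuclear genes with long ones. MT-CO2, MT-CO3 and MT-CO1, the catalytic core of complex IV, led at 7755, 5621 and 4207 CPM per kb in ERbeta and 7325, 5649 and 4205 CPM per kb in EV_Ctrl. MT-ND6, the one mitochondrial member on the minus strand, was lowest at 206 CPM per kb in ERbeta and 259 CPM per kb in EV_Ctrl. A chosen set of 11 nuclear copies of mitochondrial DNA held reads equal to 2.32% to 2.45% of those of the 13 genes in ERbeta and 2.10% to 2.57% in EV_Ctrl. Other nuclear copies were not counted. Reads assigned to such copies and to the genes may not be fully separated.

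Of the mitochondrial complex I genes all 7 had negative log2 fold changes, and in all 7 the lowest library was ERbeta 3. MT-ND5, a proton-pumping subunit, had 2121, 1785 and 565 CPM in ERbeta and 2281, 1165 and 2805 CPM in EV_Ctrl. ERbeta 1 and 2 lay inside the control range and ERbeta 3 below it, so the log2 fold change of -0.48 ± 0.49 (edgeR adjusted p 0.665) was smaller than the pooled SD of 0.87 on the log2 scale. MT-ND6 had 124, 119 and 80.3 CPM in ERbeta and 114, 107 and 187 CPM in EV_Ctrl. MT-ND4L had 415, 508 and 234 CPM in ERbeta and 432, 412 and 489 CPM in EV_Ctrl, and MT-ND4, on the same message, had 3447, 3807 and 1803 CPM in ERbeta and 3230, 2777 and 3841 CPM in EV_Ctrl. In both genes of this pair ERbeta 2 was at or near the top and ERbeta 3 lowest. MT-ND2 averaged 1179 ± 149 CPM in ERbeta and 1284 ± 36.3 CPM in EV_Ctrl, MT-ND1 733 ± 247 CPM in ERbeta and 780 ± 162 CPM in EV_Ctrl, and MT-ND3 453 ± 95.5 CPM in ERbeta and 468 ± 46.4 CPM in EV_Ctrl.

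The other mitochondrial genes overlapped between groups as well. MT-CYB, which encodes cytochrome b of complex III, had 1722, 2204 and 1510 CPM in ERbeta and 1499, 1435 and 1904 CPM in EV_Ctrl, and was the one mitochondrial gene whose lowest library was not ERbeta 3. MT-CO1 averaged 6488 ± 1125 CPM in ERbeta and 6485 ± 268 CPM in EV_Ctrl, MT-CO2 5305 ± 1482 CPM in ERbeta and 5011 ± 228 CPM in EV_Ctrl, and MT-CO3 4407 ± 794 CPM in ERbeta and 4429 ± 432 CPM in EV_Ctrl. MT-ATP8 had 521, 764 and 354 CPM in ERbeta and 631, 638 and 718 CPM in EV_Ctrl. MT-ATP6, which shares its message, had 2480, 2809 and 1362 CPM in ERbeta and 2680, 2259 and 2762 CPM in EV_Ctrl.

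**Figure D2:**
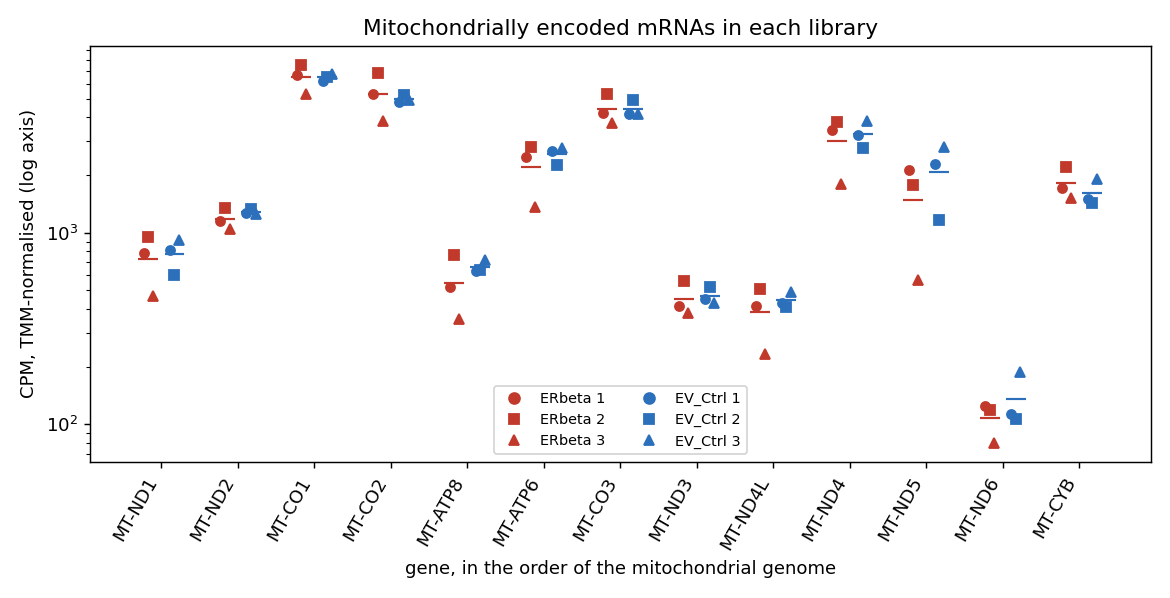
TMM-normalised CPM (log axis) of the 13 mitochondrially encoded mRNAs in each library, with group means as bars, in the order of the genome. ERbeta 3 (red triangle) is the lowest library in 12 of 13 genes, and in MT-ND5 it is at 565 CPM.

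Set against the nuclear members, the mitochondrial members stood a little lower in ERbeta, by less than the spread between libraries. The mean log2 CPM of the mitochondrial genes minus that of the nuclear genes was 3.94, 3.94 and 3.31 in ERbeta 1 to 3 and 3.88, 3.68 and 4.34 in EV_Ctrl 1 to 3. Both extremes came from replicate 3 of a group, and the other 4 libraries lay between 3.68 and 3.94. The difference of ERbeta minus EV_Ctrl was -0.24, within the pooled SD of 0.35. It was -0.03 without ERbeta 3 and -0.05 without EV_Ctrl 3. The nuclear mean alone was 6.45, 6.69 and 6.47 in ERbeta and 6.52, 6.63 and 6.25 in EV_Ctrl. EV_Ctrl 3 was the lowest library for 52 of 75 nuclear members (69.3%, against 20.04% of all tested genes), and ERbeta 2 the highest for 37 (49.3%, against 11.7%).

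**Figure D3:**
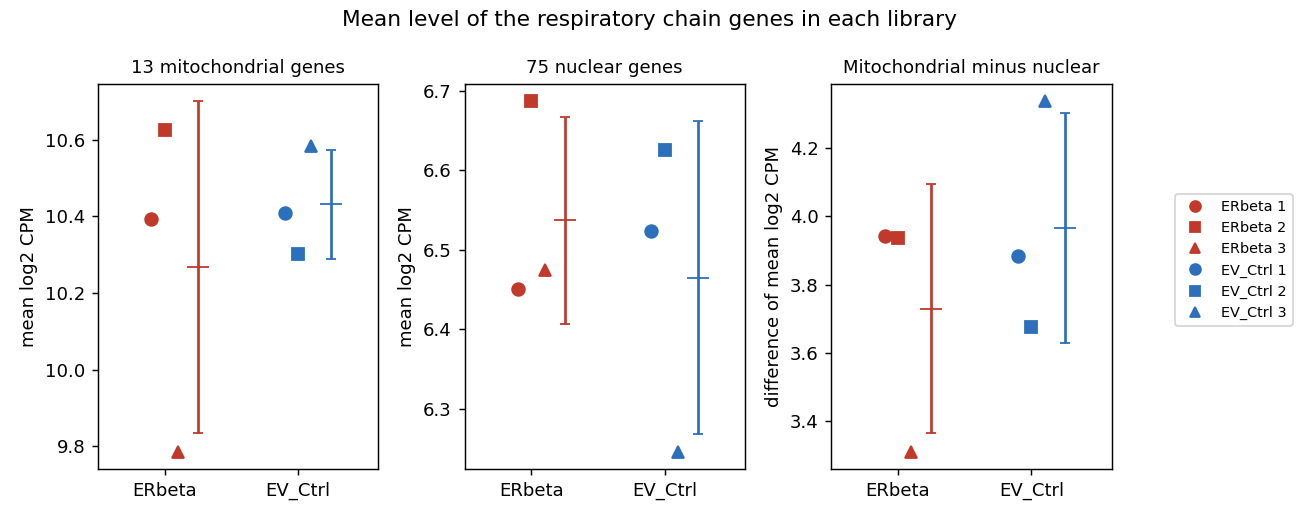
Mean log2 CPM of the 13 mitochondrial genes, of the 75 nuclear genes and their difference in each library, with group mean and SD (n = 3) beside the points; the vertical axes do not start at 0. ERbeta 3 has the lowest mitochondrial mean and difference (3.31) and EV_Ctrl 3 the lowest nuclear mean and the highest difference (4.34).

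Log2 fold changes of the nuclear members ran with GC content as those of all genes did. Across the 75 genes Pearson's r was -0.52 and Spearman's rho -0.58, and across 16091 tested genes -0.55 and -0.61; genes share the same 6 libraries and are not independent, so this is a description. The 27 nuclear members under 45% GC, a split chosen after the values were seen, had a median log2 fold change of 0.11, and the 48 others -0.02. With the GC correction these medians were -0.13 and 0.07. The mitochondrial median was -0.12 without and -0.27 with the correction.

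**Figure D4:**
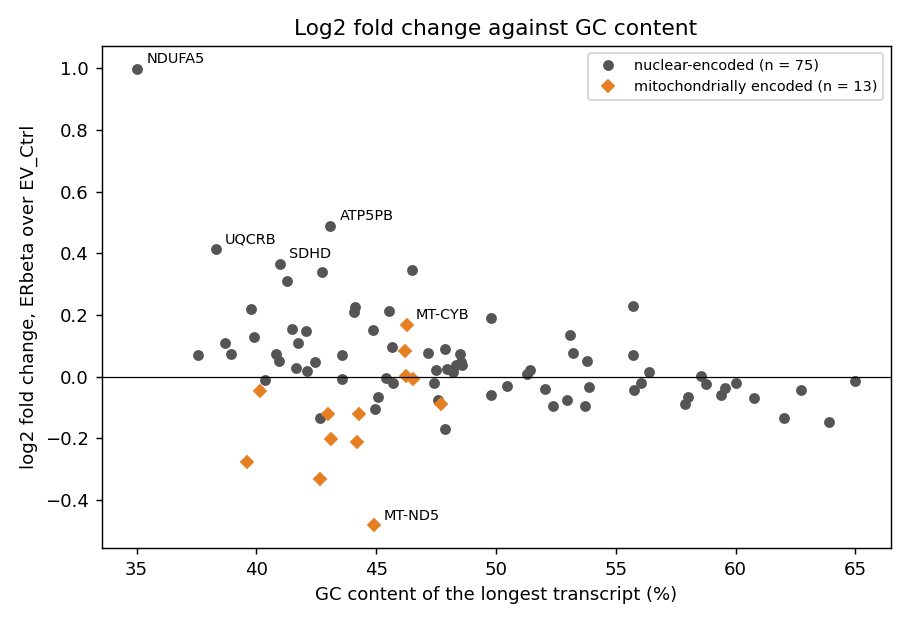
Log2 fold change of ERbeta over EV_Ctrl against GC content of the longest transcript for 75 nuclear (circles) and 13 mitochondrial (diamonds) genes. NDUFA5, at 35.04% GC, is at the upper left, and the nuclear genes above 60% GC lie below 0.

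Calls among the members depended on EV_Ctrl 2. Without it, 7 nuclear members passed the adjusted p of 0.05 as higher in ERbeta, 7.95% of the 88 against 13.5% of 16259 genes, and 0 as lower, against 0.775%. They were NDUFA5, NDUFS4, SDHD, UQCRB and ATP5PB, and NDUFA12 and NDUFB3, accessory subunits of complex I named after their values were seen. NDUFA5 then had a log2 fold change of 1.54 (edgeR adjusted p 4.95e-05), ATP5PB 0.87 (0.0016) and UQCRB 0.86 (0.00205). With EV_Ctrl 2 as the only control UQCRB was at -0.17 and ATP5PB at -0.04. EV_Ctrl 2 was also the library whose GC slope lay with the ERbeta group, and the part of that slope in these calls was not tested.

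Counts of some nuclear members may be incomplete. In 14 of 75, at least 40% of the coding bases (a limit chosen after the values were seen) also belonged to another gene annotated on the same strand. The 5 nuclear members with the lowest level per coding length, NDUFV2, NDUFA7, NDUFA9, NDUFA13 and NDUFB8, all shared at least 83.4%, and NDUFV2, a core subunit, was at 2.34 CPM per kb in ERbeta and 1.89 CPM per kb in EV_Ctrl with 100% shared. UQCR11 was also shared at 100% but was at 305 CPM per kb in ERbeta and 326 CPM per kb in EV_Ctrl. Over the 6 libraries the gene sharing bases with NDUFV2 held 0 reads, where NDUFV2 held 142. Such reads were 15 beside 151 for NDUFA7, 204 beside 1901 for NDUFA13 and 32 beside 2910 for NDUFB8. For NDUFA9, with 2586 reads, the genes sharing its bases held 2 and 3. How shared reads were counted is not given in the sources used here, and its part in these low levels was not tested. SDHD shared 65.4% of its coding bases.

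Of 135 tested genes in 9 companion lists, which build and serve the chain, edgeR's test called 0, while 13 were higher (9.63%, against 9.54% of all tested genes) and 0 lower (against 2.89%) at an unadjusted p under 0.05. DESeq2 called 2 of them (1.48%, against 0.437% of all tested genes), CYCS (adjusted p 0.0156) and MT-RNR1 (adjusted p 0.0177), both higher in ERbeta. Without EV_Ctrl 2 edgeR called 22 as higher (16.3%, against 13.5% of 16259 genes) and 1 as lower (0.741%, against 0.775%). The lower one, UQCRHL, named after its values were seen, is a near-identical copy of UQCRH, so reads of the pair may not be fully separated; it had 5.86, 1.95 and 3.92 CPM in ERbeta and 16.2, 1.51 and 12.5 CPM in EV_Ctrl, a log2 fold change of -1.25 ± 0.78 with all libraries and -1.85 (edgeR adjusted p 0.00242) without EV_Ctrl 2. Cytochrome c (CYCS), the carrier between complexes III and IV, had 232, 234 and 255 CPM in ERbeta and 117, 169 and 99.4 CPM in EV_Ctrl. The groups did not overlap, at a log2 fold change of 0.90 ± 0.19 (edgeR adjusted p 0.384; 0.67 with the GC correction). The mitochondrial 12S rRNA, MT-RNR1, had 567, 660 and 686 CPM in ERbeta and 367, 463 and 402 CPM in EV_Ctrl, a log2 fold change of 0.63 ± 0.12 (edgeR adjusted p 0.326; 0.60 with the GC correction). The 16S rRNA, MT-RNR2, had 4896, 5342 and 6029 CPM in ERbeta and 3432, 4374 and 4212 CPM in EV_Ctrl, a log2 fold change of 0.44 ± 0.13 (0.27 with the GC correction). ERbeta 3 was thus highest for both rRNAs and lowest for 12 of 13 mRNAs of the same genome, in libraries made with an mRNA kit.

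**Figure D5:**
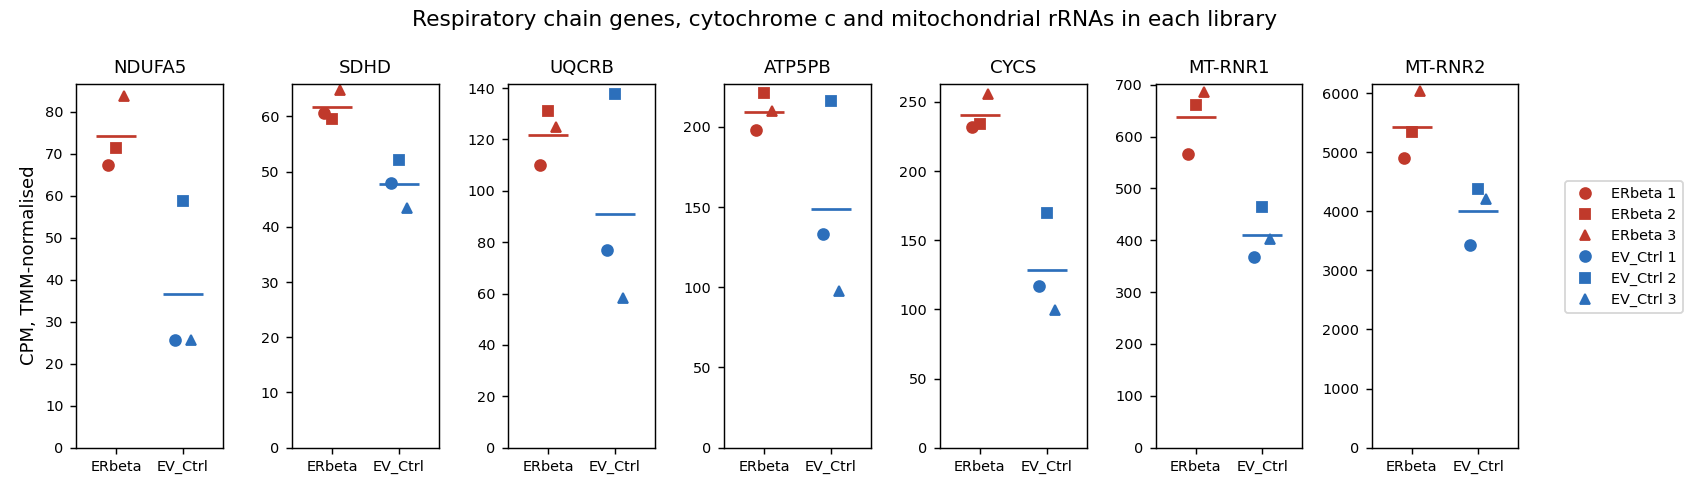
TMM-normalised CPM in each library for 4 nuclear subunit genes, CYCS and the 2 mitochondrial rRNAs (axes start at 0; bars are group means; genes chosen after their values were seen). ERbeta and EV_Ctrl do not overlap for NDUFA5, SDHD, CYCS, MT-RNR1 and MT-RNR2, and EV_Ctrl 2 reaches the ERbeta range for UQCRB and ATP5PB.

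Among the companion lists, 19 of 25 tested genes of mitochondrial transcription and RNA handling were positive in log2 fold change (median 0.19), but 11 of 25 with the GC correction (median -0.01), and TFAM, the mitochondrial DNA packaging and transcription factor, was at 0.58 ± 0.19 (0.13 with the GC correction). Nuclear regulators had 6 of 11 positive and a median of 0.04, and 6 of 11 and 0.01 with the GC correction. In that list GABPA, the DNA-binding subunit of GABP, had 101, 89.6 and 138 CPM in ERbeta and 30.4, 74.7 and 33.3 CPM in EV_Ctrl, a log2 fold change of 1.23 ± 0.35 (edgeR adjusted p 0.397; 0.71 with the GC correction), and NRF1 was at -0.00 ± 0.11. At an unadjusted edgeR p under 0.05, 3 of the 11 regulators were higher and 0 lower, against 9.54% and 2.89% of all tested genes. They were GABPA, CREB1 (0.85 ± 0.25, and 0.27 with the GC correction) and GABPB1 (0.37 ± 0.11, and -0.06 with the GC correction). Protein quality control and import had 17 of 25 positive with a median of 0.09 (16 of 25 and 0.11 with the GC correction), and its smallest p was that of the protease gene YME1L1 at 0.42 ± 0.17 (0.11 with the GC correction). Mitochondrial DNA replication had 7 of 11 positive with a median of 0.02 (9 of 11 and 0.09 with the GC correction), and its smallest p was that of PRIMPOL, a primase-polymerase, at 0.55 ± 0.22 (0.31 with the GC correction).

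Assembly factors had medians near that of all genes. Those of complex I had a median of 0.03 with 11 of 18 positive, and -0.01 with 8 of 18 positive with the GC correction; TMEM126B was at 0.46 ± 0.20 without and -0.00 with the correction. Those of complex IV had a median of 0.02 with 12 of 21 positive, and 0.03 with 12 of 21 with the correction; COX11 was at 0.33 ± 0.13 without and 0.33 with it. Those of complexes II, III and V had a median of -0.00 with 6 of 14 positive, and 0.01 with 7 of 14 with the correction; SDHAF3 was at 0.54 ± 0.18 without and 0.42 with it. Subunits and carriers outside the chosen symbols had 5 of 8 positive with a median of 0.04, and 5 of 8 and 0.09 with the correction.

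In the authors' deposited table, 86 of the 88 members had the same sign of log2 fold change as here. NDUFA5 alone of the members passed an adjusted p of 0.05 in the authors' deposited table, at a log2 fold change of 0.60 with an adjusted p of 0.0442, where 3.78% of 11150 genes passed. The authors' deposited table has a mean above 0 for 8079 genes that had 0 reads in these 6 libraries; which libraries or counts it rests on is not given in the sources used here.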

How the data were processed

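RNA of 6 HEK293T libraries was sequenced from a stranded mRNA kit, per the labels' protocols. The authors' tools were TopHat2, featureCounts and DESeq2 on hg38, per the submitters' processing notes; the sources used here give neither versions nor annotation nor strand setting. The deposited counts are the authors' whole-number reads per gene. The authors' deposited table of their own comparison holds a mean signal, log2 fold changes, scores (standard errors, Wald statistics) and p-values, and was only set beside the results. The labels number replicates 1 to 3 without saying that they were separate cultures, so the spread behind the p-values is that of these libraries and may be technical. No pair within a group agreed within counting noise (chi-square per degree of freedom 4.99 to 37.6).

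Genes were kept with filterByExpr (minimum count 10, minimum total 15), normalised by TMM and tested with edgeR 4.0.16 (glmQLFTest, group as the only term) in R 4.3.3, with Benjamini-Hochberg adjustment over all 16243 genes and a threshold of 0.05. CPM are per 1e+06 counts. Coding lengths, positions and GC content are from GENCODE 29 on GRCh38. Coding length replaced transcript length after the latter were seen to be inflated by rare isoforms. GC content was still that of the longest transcript of each gene, which may be such an isoform. The GC correction was an offset from a loess fit, per library, of log2 CPM against GC content (span 0.5). Because the GC slope ran with group, values with this correction may lack a part of a real difference between groups. DESeq2 1.42.0 and limma-voom 3.58.1 were alternatives. The steps were run on simulated data with less spread than these data and larger changes than most members had. That run does not show how small a change could be found here. Named genes were the 13 mitochondrial mRNAs, SDHA to SDHD, ATP5MC1 to ATP5MC3, ESR1 and ESR2. In each of complexes I, III, IV and V the 3 nuclear members with the smallest p were named. The nuclear member with the highest level per coding length was named there too, as was the smallest p of each companion list. Other members and companion genes with values in the text were chosen after their values were seen, also where this is not said beside them. Members, lists, the GC correction and the settings on EV_Ctrl 2 were chosen with earlier results of these data known. The table held 0 columns outside the 6 libraries and 0 reads in entries naming no gene.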

Additional observations from a re-analysis of the deposited data

How the results depend on the processing

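Over 18 alternatives, members called stayed at 0 except without EV_Ctrl 2 (leave-one-out range 0 to 7). All genes called were 51 with no filter on low counts, 71 with DESeq2's test, 1 with limma-voom, 9 with the GC offset and 0 to 2324 when each library was left out. The median of all genes moved by -0.09 on the log2 scale with library size only and by at most 0.02 in size elsewhere. No pairing by replicate number was seen in the deviations from the group means (correlations 0.23, -0.14 and -0.15), which does not show that there was none. The replicate block gave 0 calls, as did the block with the GC offset. The nuclear median became -0.07 with library size only, -0.05 without ERbeta 2, -0.06 without EV_Ctrl 3 and -0.08 with EV_Ctrl 2 as the only control; the mitochondrial median became 0.06 without ERbeta 3 and 0.00 with that sole control, where the mitochondrial minus nuclear difference was 0.05. That difference of levels was not computed under DESeq2's test, limma-voom or the block.

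Log2 fold changes of 26 of 35 named members changed sign in at least one setting, in 73 of 630 values, and 0 of these values was called; 5 members had a size over 0.25 in the report. The causes were not tested. MT-CO1, near 0 in the report, was at -0.0084 with DESeq2 size factors and with DESeq2's test, -0.093 with library size only, -0.012 with nuclear library totals, -0.00029 with no filter, -0.015 with the filter of 1 CPM, -0.014 with limma-voom, -0.013 with the replicate block, -0.010 with the GC offset and -0.029 with block and offset. With library size only MT-CO2 was at -0.0089, SDHB -0.057, ATP5MC2 -0.054, ATP5MC3 -0.044, NDUFA1 -0.036 and COX4I1 -0.0023. With the GC offset ATP5MC3 was at -0.246, NDUFB5 -0.158, COX7B -0.084, COX6C -0.056, COX6B1 0.056 and ATP5F1E -0.332, and with the replicate block as well -0.243, -0.156, -0.087, -0.046, 0.072 and -0.325. With EV_Ctrl 2 as the only control (assumed to vary like the ERbeta libraries) MT-ND6 was at 0.019, MT-ND5 0.360, MT-ND4 0.124, MT-ND1 0.286, SDHB -0.018, ATP5MC2 -0.036, ATP5MC3 -0.0011, NDUFS4 -0.076, NDUFA1 -0.217, UQCRB -0.174, UQCRC2 -0.039, UQCRH -0.213, COX7B -0.112, COX6C -0.059, COX4I1 -0.024, ATP5PB -0.040, ATP5PD -0.075 and ATP5F1E -0.164. Leaving out each library in turn gave these ranges for members whose sign changed: MT-CO3 -0.150 to 0.100, MT-CO1 -0.111 to 0.129, MT-CO2 -0.127 to 0.271, ATP5MC2 -0.070 to 0.141, ATP5MC3 -0.059 to 0.136, NDUFA1 -0.107 to 0.221, MT-ND4L -0.444 to 0.056, MT-ND4 -0.313 to 0.145, MT-ND1 -0.310 to 0.156, MT-ND3 -0.223 to 0.065, MT-ATP6 -0.408 to 0.044, COX6B1 -0.167 to 0.065, SDHB -0.068 to 0.117, UQCRH -0.0014 to 0.460, COX6C -0.026 to 0.279 and ATP5F1E -0.077 to 0.279.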
